A study of Mus musculus with 9 samples.

Results

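Genes for integrins and for the focal adhesion proteins that couple them to actin were followed in 9 RNA-seq libraries prepared as mouse Müller glia, the principal glial cells of the retina. A gene was included if its symbol had the form of an integrin alpha or beta chain (27 genes) or was one of 15 focal adhesion genes: Tln1, Tln2, Vcl, Pxn, Ptk2, Zyx, Ilk, Parva, Parvg, Fermt2, Fermt3, Lims1, Tns1, Tns3 and Bcar1. This gave 42 genes of the 17964 in both deposited tables together. Of these, 41 were in the table of sorted cells, 41 in the table of cultured cells and 40 in both; Itga11 was listed for the cultures alone and Itgad for the sorted cells alone. One of the 27, Itgbl1, encodes a beta-like protein and no integrin chain.

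All mice were wild type. Sorted cells came from sham animals, whose cornea was only cut (3 libraries), and from animals with ocular hypertension (OHT), in which 1.2 µL of silicone oil in the front chamber of both eyes raises the eye pressure (3 libraries). Each sorted library pooled 4 retinas, and both groups went through the same papain digestion, dead cell removal and magnetic capture with an antibody against GLAST, a glutamate transporter that astrocytes also carry. The 3 primary cultures were untreated, came from C57BL/6J pups of postnatal day 8 to 10, grew in 10% serum on gelatin and were passaged when confluent. The labels give no age for the sorted animals and do not say whether libraries of a group came from separate animals or cultures, so p-values measure the spread between these libraries, which may be technical.

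Integrins are paired receptors of an alpha and a beta chain that join the cell surface to the extracellular matrix or to other cells. Talin and kindlin bind the beta tail and switch the receptor on, the complex of ILK, PINCH and parvin strengthens the link to actin, and paxillin, focal adhesion kinase and p130Cas pass signals on. Many of these proteins exist as a broadly expressed form and a form restricted to blood-derived cells: the beta2 integrins, kindlin-3 and gamma-parvin are carried by leukocytes and by microglia, the resident macrophages of the retina, while beta1, kindlin-2 and alpha-parvin are made by most adherent cells.

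Depth was 37.8 to 44.5 M reads in sham (1 M is 1000000 reads), 47.1 to 53.6 M in OHT and 66.3 to 76.7 M in the cultures. The labelled cell type was checked against its defining genes. A list of 16 Müller glia genes made up 0.377 to 0.906% of the reads in sham, 0.192 to 0.424% in OHT and 0.0304 to 0.0466% in the cultures. Each of the 16 was lower in every culture than in any sorted library, against 16.5% of all 15438 shared genes. Microglia and macrophage genes (17 of 18 listed in the sorted table) made up 2.50 to 4.21% of the sorted libraries and 0.00965 to 0.0149% of the cultures. Rod photoreceptor genes (10 listed) took 0.262 to 2.59% of the sham reads, more than the Müller glia list in sham replicates 2 and 3, and 0.0854 to 0.329% of the OHT reads. A list of 10 mural cell and fibroblast genes had the opposite order in total. It took 1.63 to 1.93% of the culture reads and at most 0.0269% in a sorted library. Acta2 was at 8134 to 13250 ppm (reads per 1000000 reads of the library) in cultures and Col1a1 at 4121 to 6521 ppm. Of the 10, 9 were higher in every culture, against 32.5% of all shared genes. The other, Rgs5, was lower in every culture (2.58 to 3.44 against 4.85 to 226 ppm). Rgs5 made up most of this list in every sorted library. The sorted libraries thus held RNA of the microglia, Müller glia and rod lists, and the cultures had little RNA of the first and the second. In bulk RNA, fewer cells of a type and less RNA per cell cannot be told apart.

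Promoter sequence is shown for 4 genes on opposite sides of the difference between sorted and cultured cells described next. They are Itgam and Parvg, restricted to blood-derived cells, and Itga5 and Vcl, which adherent cells make. Other genes differed more on both sides. These 4 were chosen after their values were seen. RefSeq windows on GRCm38.p6 were found for 30 of the 42 genes (37 windows, none for Itgb2); the submitters' processing notes name mm39 for the deposited data, so these coordinates are not on the build of the tables. The 250 bases before the annotated start (for Parvg, the more upstream of 2 starts) are printed, 5′ to 3′ on the strand of the gene, from chr7:128062390-128062639 (plus strand), chr15:84324470-84324719 (plus strand), chr15:103366792-103367041 (minus strand) and chr14:20929148-20929397 (plus strand). Capitals mark GAGGAA on either strand, the core letters bound by PU.1, a transcription factor of myeloid cells.
Itgam: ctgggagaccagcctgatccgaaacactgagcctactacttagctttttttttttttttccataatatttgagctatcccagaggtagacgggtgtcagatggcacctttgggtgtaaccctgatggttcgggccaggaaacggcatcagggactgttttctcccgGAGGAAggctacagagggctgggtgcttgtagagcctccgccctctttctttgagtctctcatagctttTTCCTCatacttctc
Parvg: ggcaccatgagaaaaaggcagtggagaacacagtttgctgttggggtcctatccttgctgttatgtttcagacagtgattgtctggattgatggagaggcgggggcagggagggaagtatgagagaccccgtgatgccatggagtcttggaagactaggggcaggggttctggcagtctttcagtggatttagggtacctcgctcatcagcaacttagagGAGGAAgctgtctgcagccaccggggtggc
Itga5: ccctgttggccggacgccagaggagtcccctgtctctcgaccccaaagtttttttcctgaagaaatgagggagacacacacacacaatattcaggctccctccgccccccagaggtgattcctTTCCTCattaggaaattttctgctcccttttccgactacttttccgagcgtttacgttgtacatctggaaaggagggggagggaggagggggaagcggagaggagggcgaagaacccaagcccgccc
Vcl: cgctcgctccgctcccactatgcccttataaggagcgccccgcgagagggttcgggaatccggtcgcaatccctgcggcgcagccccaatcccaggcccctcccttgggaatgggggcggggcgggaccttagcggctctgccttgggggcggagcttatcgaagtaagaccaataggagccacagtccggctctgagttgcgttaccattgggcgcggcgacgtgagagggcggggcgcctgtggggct
Before the start, Itgam held 2 matches, whose first bases lie 84 and 15 bases upstream. Parvg held 1 match, at 30 bases, and its other annotated window, downstream of the printed one, held none in 300 bases. Itga5 held 1 at 127 bases, and Vcl held none. The windows of Fermt3 and Itgax, blood-restricted genes that differed more than Itgam and Parvg and are not printed, held none in 300 bases. Over whole windows of 300 bases, which run on to 50 bases past the start, GAGGAA was in 12 of 37 windows of the 42 genes (32.4%), in 3 of 6 windows of the blood-restricted genes, in 2 of 4 windows of their broad counterparts (50% each) and in 9289 of 32851 windows of all genes (28.3%). GGAATG, core letters bound by the TEAD factors, on either strand, was in 3 of 37 windows (8.11%), in 0 of 6 of the blood-restricted genes, in 1 of 4 of the counterparts and in 4817 of all windows (14.7%). The letters GGAA end the first motif and begin the second, so matches of both can overlap, and a match describes letters only.

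Sorted and cultured libraries differed in the levels of their integrin transcripts. Because the tables were normalised separately, levels across them are given in ppm without a p-value. Of the 40 genes in both tables, 22 were higher in every culture than in any sorted library, where 32.5% of all 15438 shared genes were, and 10 were lower in every culture, where 16.5% of all genes were. The other 8 overlapped (Itga2, Itga4, Itgb3, Itgb6, Itgb7, Itgb8, Pxn and Tln2). The source of the cells, the age of the animals, growth in serum and the table cannot be told apart in this comparison.

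The beta2 family led the sorted side. Itgb2, the common beta chain of leukocyte integrins, was at 633, 417 and 429 ppm in sham replicates 1 to 3, at 317, 632 and 471 ppm in OHT and at 1.10, 1.19 and 2.84 ppm in the cultures. Itgam, its alpha partner in complement receptor 3 (CD11b), was at 432, 246 and 215 ppm in sham, at 217, 313 and 244 ppm in OHT and at 0.875, 1.48 and 1.71 ppm in the cultures. Both were far below the sorted range in all 3 cultures, and sham and OHT overlapped. On means, Itgb2 was 282-fold and Itgam 205-fold higher in the sorted libraries (483 ± 126 against 1.71 ± 0.980 ppm and 278 ± 83.3 against 1.35 ± 0.430 ppm; SD, n = 6 and 3). Itgax, the CD11c chain, averaged 49.9 ± 24.1 ppm (SD, n = 6) in sorted cells and had 0 reads in every culture, which makes it at least 1209-fold higher, taking a floor of 3 reads per library. That floor covers counting error only.

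Itgal, the LFA-1 alpha chain of lymphoid and myeloid cells, was at 8.73, 0.961 and 23.2 ppm in sham, at 10.8, 30.9 and 10.9 ppm in OHT and at 0.0302 to 0.274 ppm in the cultures. It varied far more among sorted libraries than Itgam did. Itgae, a chain of mucosal T cells and some dendritic cells, stayed between 0.270 and 2.65 ppm in sorted and 0.0603 and 0.208 ppm in cultured cells. Itgad, the least abundant beta2 partner, was at 0 to 0.525 ppm. Itgb7, a lymphocyte beta chain, was the exception to the order of this group: 0, 0 and 8.01 ppm in sham, 0.231, 2.59 and 0 ppm in OHT, and 2.16, 2.97 and 4.29 ppm in the cultures, so the ranges overlapped. The list of 8 lymphocyte genes was lowest in sham replicate 3, where Itgb7 was highest (0.00333% of reads, against 0.00371 to 0.00730% in the other sorted libraries). Cd79b, listed as a B cell gene, made up most of the total of this list in every sorted library (22.9 to 72.4 ppm). The other B cell gene listed, Cd79a, was at 0 to 0.978 ppm in the same libraries. Cd79b was lowest in sham replicate 3 (22.9 ppm), where Cd79a was at 0, as it was in OHT replicates 2 and 3. Among sorted libraries, the T cell genes Cd3e (2.23 ppm), Cd3d (0.225 ppm), Cd2 (0.562 ppm) and Trac (0.944 ppm) were highest in sham replicate 3. So was the cytotoxic cell gene Nkg7 (3.78 ppm), while Lck was higher in sham replicate 2. The part of these cells in the Itgb7 value was not tested. Of 8 blood-restricted genes in both tables, 7 were lower in every culture, against 16.5% of all shared genes. This list did not include Itga2b, which was counted with the RGD-binding chains. Itga2b was higher in every culture (2.06 to 2.68 ppm, against 0.168 to 0.967 ppm in sorted libraries).

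Summed over a list, the 7 blood-restricted integrin chains took 0.0684 to 0.111% of the sham reads, 0.0598 to 0.107% of the OHT reads and 0.000422 to 0.000932% of the culture reads. The microglia and macrophage list moved with them. All 15 of its genes in both tables were lower in every culture, against 16.5% of all shared genes. The part of this list in the difference was not tested. Within the sorted libraries, Itgb2 amounted to 1.63, 1.53 and 1.72% of that list in sham and to 0.752, 1.62 and 1.52% in OHT. The ratio was lowest in OHT replicate 1 and otherwise spanned a narrow range. For Itgam the ratio was 1.11, 0.906 and 0.860% in sham and 0.516, 0.803 and 0.790% in OHT, where every OHT library lay below every sham library. Itgam itself overlapped between the groups. The list in the denominator took 2.50 to 3.88% of the sham reads and 3.09 to 4.21% of the OHT reads. The share of all genes whose ratio to the list separates the groups was not computed.

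**Figure D1:**
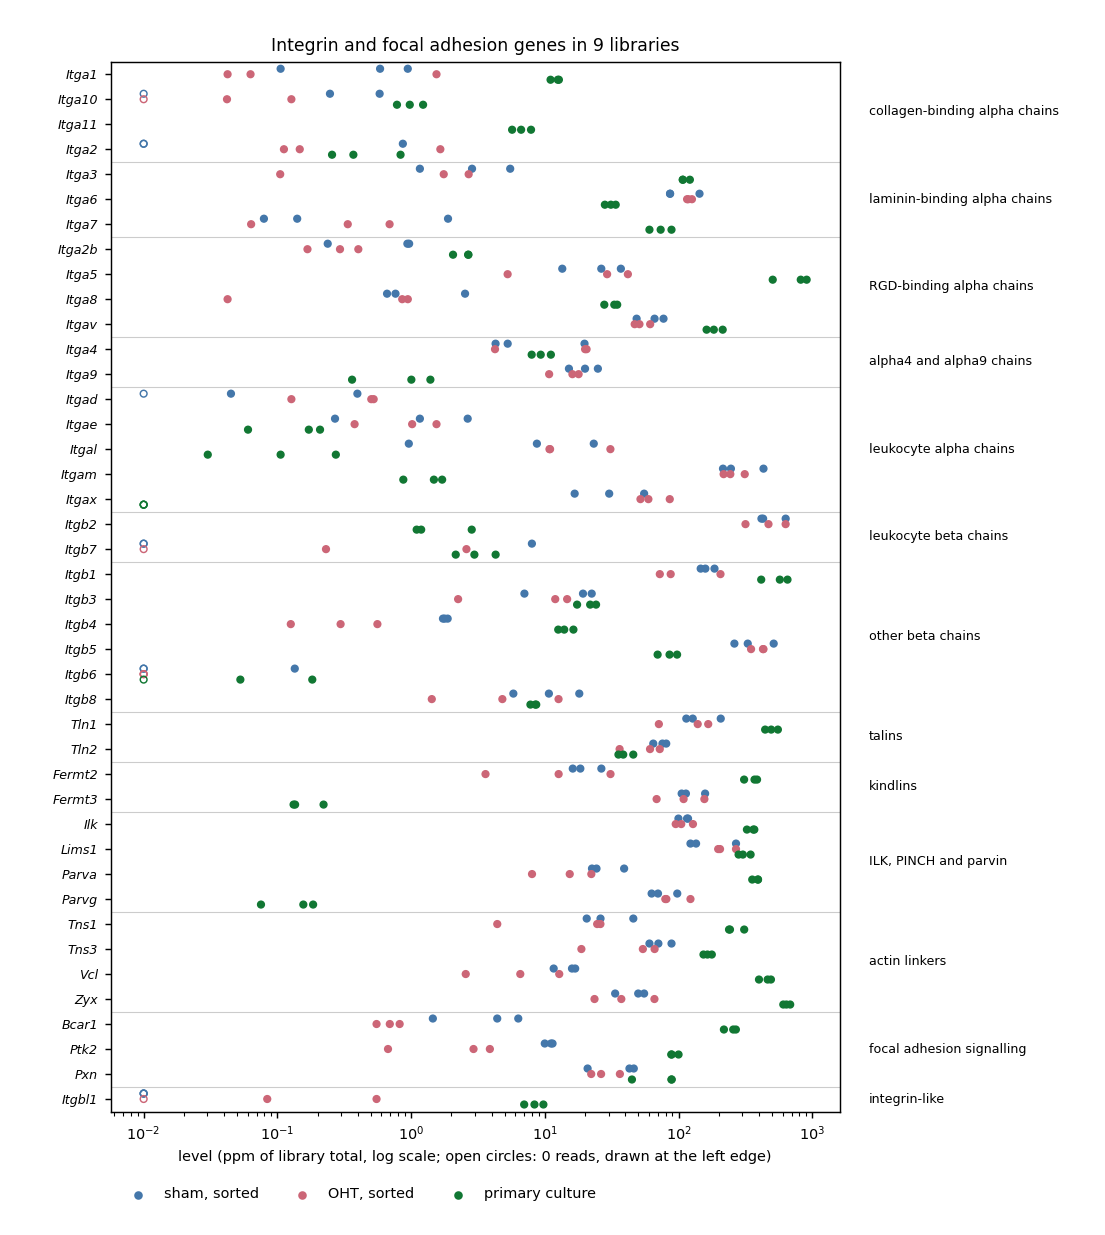
Level of each gene in ppm of the library total (x axis, log scale), ordered by role, with 1 point per library in sham, OHT and culture; open circles at the left edge are libraries with 0 reads. Itgb2, Itgam, Fermt3 and Parvg lie far below the sorted points in the cultures, while Itga5, Bcar1, Vcl and Zyx lie far above them.

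Among the other alpha chains the cultures were mostly higher. Itga5, the fibronectin receptor chain, averaged 745 ± 211 ppm (SD, n = 3) in cultures, with 506, 820 and 908 ppm in replicates 1 to 3, and 25.5 ± 13.9 ppm (SD, n = 6) in sorted cells, a 29.2-fold difference. Sorted libraries ranged from 5.27 ppm in OHT replicate 1 to 41.8 ppm in OHT replicate 2, so sham and OHT overlapped. Itgav, the alphaV chain that binds RGD-containing ligands and activates latent TGF-beta, was at 77.2, 66.2 and 48.6 ppm in sham, at 47.0, 51.0 and 61.4 ppm in OHT and at 162, 214 and 184 ppm in cultures, 3.19-fold higher there. The remaining RGD-binding chains Itga8 (33.0-fold) and Itga2b (4.93-fold) were higher in cultures too. Per kb of the longest transcript, Itgav was 43.1 to 84.7% of Itga5 plus Itgav in sorted libraries and 11.2 to 16.6% in cultures. With the median transcript length these shares were 88.6 to 98.3% and 56.3 to 67.1%.

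The laminin receptors divided. Itga6 was higher in sorted cells, at 86.4 to 143 ppm against 28.1 to 33.9 ppm. Itga3 averaged 112 ± 8.04 ppm (SD, n = 3) in cultures and 2.35 ± 1.85 ppm (SD, n = 6) in sorted cells, 47.8-fold higher, and Itga7, a chain of muscle cells, was 139-fold higher (74.2 ± 14.01 ppm in cultures against 0.533 ± 0.705 ppm). Itga6 therefore made up 94.5 to 99.6% of the laminin-binding alpha chains per kb in sorted libraries and 14.3 to 15.2% in cultures. Of the collagen-binding chains, Itga1 was 22.1-fold higher in cultures (12.1 ± 0.923 ppm), Itga10 stayed at or under 1.23 ppm everywhere, Itga2 overlapped, and Itga11 was at 5.69 to 7.89 ppm in cultures. Itga9, which binds tenascin and osteopontin, was 19.0-fold higher in sorted cells (17.5 ± 4.78 ppm, SD, n = 6), whereas Itga4 overlapped (4.24 to 20.5 ppm sorted, 7.97 to 11.1 ppm cultured).

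Beta chains followed no single order. Itgb1, the partner of most alpha chains, was at 186, 159 and 146 ppm in sham, at 87.4, 206 and 72.4 ppm in OHT and at 415, 653 and 572 ppm in cultures, 3.83-fold higher there. Itgb5, which pairs with alphaV as a vitronectin receptor and is also expressed by microglia, went the other way, with 262 to 515 ppm in sorted cells and 69.7 to 97.5 ppm in cultures, 4.57-fold lower. Itgb4, the hemidesmosome chain, was 13.5-fold higher in cultures (14.3 ± 1.91 ppm, SD, n = 3), while Itgb3 and Itgb8 overlapped and Itgb6 was at most 0.182 ppm. Per kb, Itgb5 was 67.5 to 87.4% of Itgb1 plus Itgb5 in the sorted libraries and 14.8 to 16.3% in the cultures, and Itgb2 was 77.1 to 89.3% of Itgb1 plus Itgb2 in the former and 0.234 to 0.634% in the latter.

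Alpha and beta chains of a family can be set against each other per kb. The 4 alpha partners of beta2 summed to 0.406 to 0.476 of Itgb2 in sham and 0.435 to 0.576 in OHT, so Itgb2 exceeded its partners in all 6 libraries; in the cultures, where Itgad is not listed, the ratio was 0.436 to 0.840 at a very low level. For beta1, the alpha chains Itga1 to Itga11, without Itgav, summed to 0.664 to 0.935 of Itgb1 in sham, 0.776 to 2.16 in OHT and 1.47 to 1.76 in cultures. The most abundant beta1 partner was Itga6 in the sorted and Itga5 in the cultured cells. Some of these chains also pair with other beta chains, and Itgav, which was left out, also pairs with beta1, so the ratio is a description of these transcripts only.

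Adaptors with a blood-restricted and a broad form showed the same division. Fermt3 (kindlin-3), which activates integrins in blood cells, averaged 118 ± 33.9 ppm (SD, n = 6) in sorted cells and 0.163 ± 0.051 ppm (SD, n = 3) in cultures, 726-fold lower. Fermt2 (kindlin-2), its broad counterpart, averaged 18.1 ± 9.80 ppm in sorted cells and 355 ± 40.7 ppm in cultures, 19.7-fold higher. Fermt3 was thus 92.6, 84.5 and 87.9% of both kindlins per kb in sham, 81.8, 98.2 and 87.3% in OHT and 0.0454 to 0.0729% in cultures. Parvg (gamma-parvin) was 617-fold lower in cultures (85.7 ± 21.6 against 0.139 ± 0.057 ppm) and Parva (alpha-parvin) 17.3-fold higher (21.95 ± 10.4 against 380 ± 21.2 ppm). Parvg made up 72.6 to 86.9% of these parvins in sham, 85.5 to 94.3% in OHT and 0.0350 to 0.0778% in cultures.

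**Figure D2:**
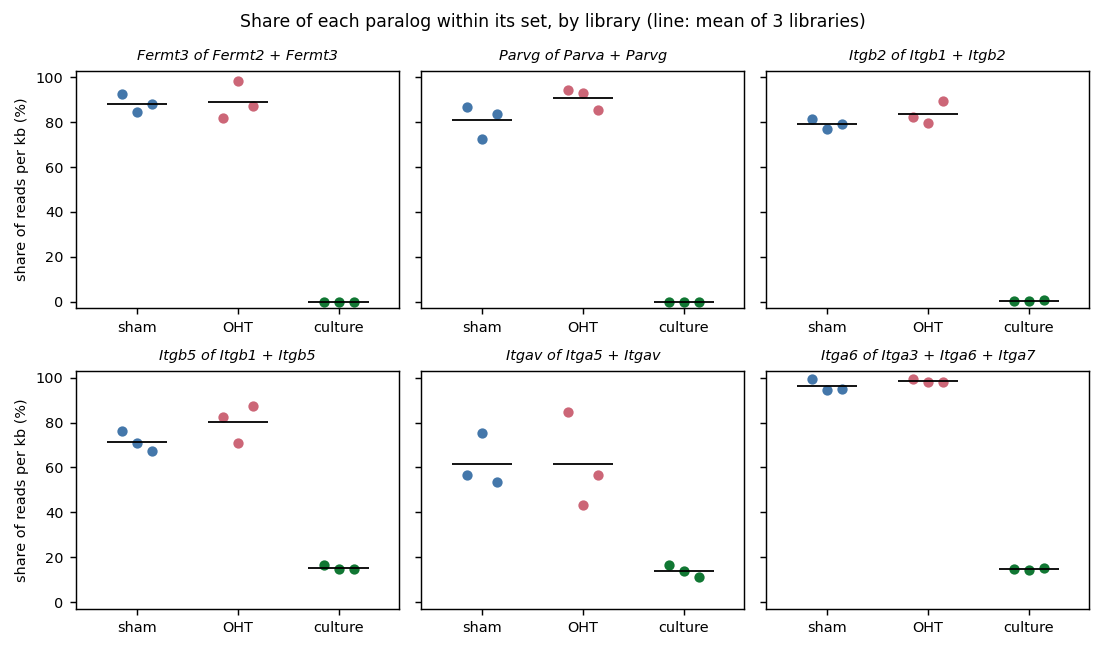
Share per kb of 1 form within each family or group (percent, y axis) in sham, OHT and culture, with 1 point per library and a line at the mean of 3. Fermt3, Parvg and Itgb2 make up most of their pair in every sorted library (72.6 to 98.2%) and under 1% in the cultures.

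Ilk, Lims1 and the talins differed less between the sources. Ilk, the scaffold of the complex, was at 95.3 to 128 ppm in sorted cells and 325 to 369 ppm in cultures (3.19-fold), and Lims1 (PINCH-1) at 123 to 269 and 281 to 346 ppm (1.55-fold), a difference that did not hold under other scalings of the libraries. Tln1, the main talin, was 3.61-fold higher in cultures (497 ± 54.5 ppm, SD, n = 3). Tln2 overlapped, at 36.2 to 80.9 ppm sorted and 35.5 to 45.9 ppm cultured. Among the actin linkers, Vcl (vinculin) was 40.8-fold higher in cultures (451 ± 46.9 against 11.1 ± 5.55 ppm), Zyx (zyxin) 14.5-fold (644 ± 38.4 against 44.3 ± 15.6 ppm), Tns1 10.7-fold and Tns3 2.76-fold. Of the signalling genes, Bcar1 (p130Cas) was 104-fold (248 ± 26.1 against 2.38 ± 2.42 ppm) and Ptk2 (focal adhesion kinase) 13.9-fold higher, while Pxn (paxillin) overlapped at 20.9 to 46.3 and 44.8 to 88.9 ppm.

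Ranked per kb of the longest transcript, the 5 most abundant of the 42 genes in sorted cells were Itgb2 (163 ± 42.5 ppm per kb), Itgb5 (118 ± 27.4), Ilk (61.4 ± 6.93), Itgam (59.3 ± 17.8) and Lims1 (46.2 ± 14.5; all SD, n = 6). Itgb2 was above Itgb5 in all 6 libraries, in OHT replicate 1 by 106.6 against 106.2. Ilk, Itgam and Lims1 did not differ beyond their spread. In cultures the order was Zyx (202 ± 12.04), Ilk (196 ± 13.3), Itga5 (170.0 ± 48.2), Itgb1 (143 ± 31.7) and Fermt2 (108 ± 12.4; all SD, n = 3), where the first 3 overlapped. With the median transcript length in place of the longest, 3 of the 5 stayed in each list.

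**Figure D3:**
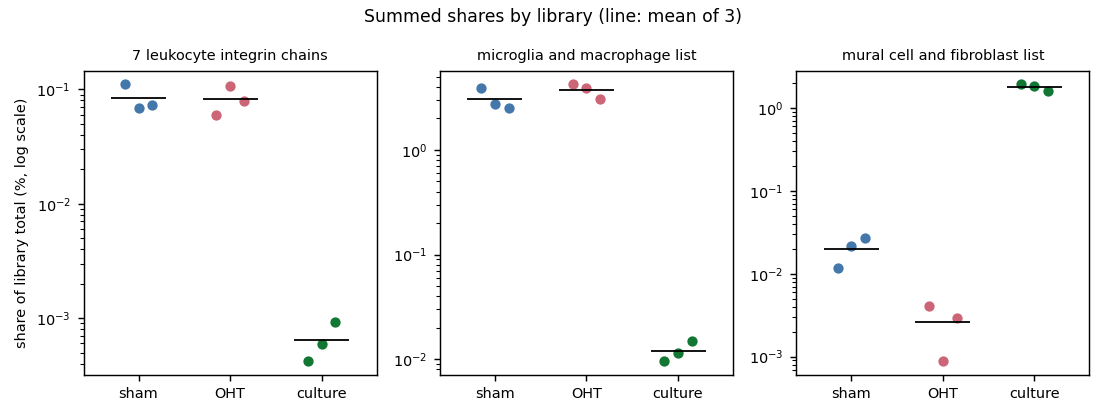
Summed share of reads (percent, log axis) of gene lists in sham, OHT and culture, 1 point per library and a line at the mean of 3. The blood-restricted integrin chains and the microglia and macrophage genes are both lower in every culture than in any sorted library, while mural cell and fibroblast genes are at least 1.63% in the cultures.

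OHT was compared with sham within the sorted table, in normalised counts, to ask whether raised eye pressure altered the expression of these genes. No gene of the 42 differed past the threshold. limma, on log2 of the value plus 1, called 0 of 38 genes at an adjusted p of 0.05 (adjusted p 0.343 to 0.998), and 0% of the 14403 genes tested. Itga10, Itgb6 and Itgbl1, with means under 10, were not tested. At an unadjusted p of 0.05, limma had 1 of the 38 higher in OHT (Itgax), against 5.37% of all genes, and 1 lower (Ptk2), against 6.3% of all genes, both near the background. Over the whole table that was 773 genes higher and 907 lower. edgeR called 0 and DESeq2 250 genes at an adjusted p of 0.05, none of them among the 38. DESeq2 gave no adjusted p for Itgad and Itgb7, which it could therefore not call. The difference was within 1 log2 unit for 28 of the 38, with a median of -0.06 against -0.12 over all genes.

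No gene was higher in every OHT library than in any sham library, where 9.26% of all genes were. Lower in every OHT library were 6 of 38 (15.8%), against 9.18% of all genes: Ptk2, Itgb4, Bcar1, Parva, Tns3 and Tln2. Other scalings left 5 (TMM factors) or 4 (quantile normalisation) of the tested genes lower in every OHT library. The share over all genes was not computed under these scalings.

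Ptk2 had 391, 437 and 486 normalised counts in sham and 44.2, 129 and 147 in OHT. All OHT libraries were below all sham libraries, OHT replicate 1 farthest. Its log2 difference was -2.20 (SE 0.74; limma adjusted p = 0.343, with 0.0945 by DESeq2 as the smallest and 0.906 as the largest over the alternatives). Itgb4 had 73.3, 70.1 and 73.7 counts in sham and 8.29, 24.7 and 11.2 in OHT. The sham libraries were within a few counts of each other, yet the gene is low and the limma adjusted p was 0.447 (log2 -2.36, SE 1.14).

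Bcar1 had 56.8, 249 and 188 counts in sham and 45.6, 36.2 and 20.8 in OHT, with sham replicate 1 close to the OHT libraries (log2 -2.06, SE 1.02; limma adjusted p = 0.454). Without that library the difference was -2.69. Parva had 951, 1541 and 959 in sham and 528, 677 and 841 in OHT (log2 -0.74, SE 0.45; limma adjusted p = 0.521). Tns3 had 2761, 3486 and 2579 in sham and 1235, 2386 and 2501 in OHT, where replicate 1 lay lowest and the other libraries nearly met the sham range; the log2 difference of -0.58 (SE 0.39; limma adjusted p = 0.550) came to -0.26 without OHT replicate 1. Tln2 was separated by the narrowest margin, 2754 to 3182 against 2385 to 2733 (log2 -0.19, SE 0.32; limma adjusted p = 0.817).

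Of these 6 genes all but Tln2 were also higher in every culture than in any sorted library. So were 22 of the 40 genes in both tables and 32.5% of all shared genes. Genes of other cell types also differed in value between OHT and sham. All 10 rod genes had negative log2 differences (median -2.41), 9 of them at an unadjusted p of 0.05 in limma, against 6.3% of all genes. The rod list took 0.262, 2.59 and 2.05% of the sham reads and 0.0854, 0.109 and 0.329% of the OHT reads. The mural cell and fibroblast list took 0.0117, 0.0220 and 0.0269% of the sham reads and 0.00413, 0.000888 and 0.00290% of the OHT reads. Every OHT library was lower than every sham library. Most of this list was Rgs5 in every sorted library (102, 187 and 226 ppm in sham, 29.4, 4.85 and 19.8 ppm in OHT). Of the listed genes, Tagln was at 0 in every OHT library and Lum at 0 in every sham library. All 16 Müller glia genes had negative log2 differences (median -0.88), 4 of them without overlap, against 9.18% of all genes. All 7 astrocyte genes (median -1.78) and all 9 endothelial genes (median -1.54) were negative too. Mitochondrially encoded transcripts took 12.2, 18.1 and 13.4% of the sham and 5.56, 3.84 and 1.98% of the OHT reads. The part of these lists in the 6 genes was not tested.

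**Figure D4:**
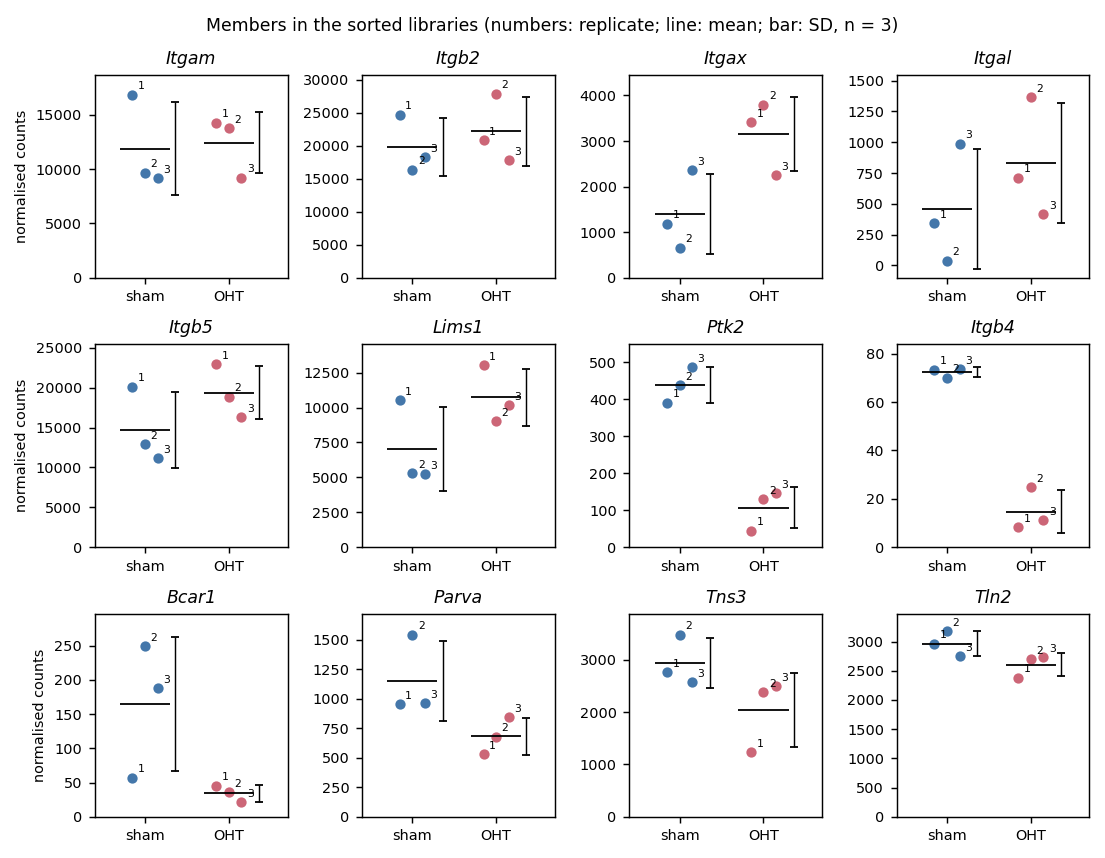
Normalised counts of 12 genes in the 6 sorted libraries (points with replicate numbers; line, mean; bar, SD, n = 3). Ptk2, Itgb4, Bcar1, Parva, Tns3 and Tln2 show OHT below sham without overlap, while the other 6 genes overlap.

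The blood-restricted genes had log2 differences that did not pass the test and whose sign, for some of them, depended on the setting. All 9 log2 differences were positive (0.02 to 2.21, median 0.54), but 8 were with TMM factors (median 0.51). With quantile normalisation 6 were positive (median 1.03), where the median over all genes was 0.01 against -0.12 in the main fit. Without OHT replicate 2, 5 of the 9 were positive, and their median over the 9 was 0.01. On recovered reads 6 were positive with edgeR (median 0.10) and 7 with DESeq2 (0.16), and 7 were with a pseudocount of 10 (0.16). All 9 were positive without OHT replicate 3 (0.82), and 6 of 8 without OHT replicate 1 (0.41). Without sham replicate 1, 2 or 3, 8, 6 and 6 were positive (0.37, 0.35 and 0.53). For Itgae and Itgb7 the group means were higher in sham (53.7 against 43.9 and 114 against 43.2 counts). Itgax had 1184, 658 and 2353 counts in sham and 3416, 3792 and 2248 in OHT, so OHT replicate 3 overlapped with sham replicate 3. By log2, OHT exceeded sham by 1.33 (SE 0.48; limma adjusted p = 0.363, between 0.251 and 0.906 over the alternatives). The microglia and macrophage list took 3.88, 2.72 and 2.50% of the sham and 4.21, 3.89 and 3.09% of the OHT reads. Log2 differences were positive for 12 of its 17 genes, 6 of them higher in every OHT library, against 9.26% of all genes. The monocyte and neutrophil list, most of whose reads were those of Csf3r in every sorted library, overlapped (0.0185 to 0.0275% in sham, 0.0173 to 0.0241% in OHT). Of its genes, Ccr2, a receptor of infiltrating monocytes, was lowest in sham replicates 1 and 2, as Itgax was (1.40, 1.88 and 36.2 ppm in sham, 9.09, 35.0 and 33.7 ppm in OHT), but the monocyte gene Ly6c2 was not (0.212, 0.516 and 5.85 ppm, against 1.15, 0.0560 and 0.870 ppm). The part of these lists in the Itgax values was not tested.

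Itgam had 16871, 9693 and 9150 counts in sham and 14300, 13793 and 9213 in OHT, which overlapped fully (11905 ± 4310 against 12435 ± 2802; SD, n = 3 each). OHT exceeded sham by a log2 of 0.09 (SE 0.35; limma adjusted p = 0.918), and it was -0.31 under quantile normalisation. Itgb2 had 24721, 16398 and 18261 in sham and 20839, 27891 and 17774 in OHT, with sham replicate 1 and OHT replicate 2 highest. By log2, OHT exceeded sham by 0.16 (SE 0.33; limma adjusted p = 0.848), and -0.28 under quantile normalisation.

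Itgal had 341, 37.8 and 988 counts in sham and 713, 1365 and 414 in OHT. Both groups spread widely, and the log2 difference of 1.65 (SE 1.01; limma adjusted p = 0.525) was 0.35 without sham replicate 2 and 2.68 without sham replicate 3. Itgad had 15.5, 0 and 1.91 in sham and 34.5, 22.2 and 4.81 in OHT (log2 2.21, SE 1.72; limma adjusted p = 0.598), too few reads to order the libraries. Itgae had 11.5 to 104 in sham and 24.9 to 68.3 in OHT, and Itgb7 0, 0 and 341 against 15.2, 114 and 0; neither separated the groups.

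Within the CD11 chains per kb, Itgam took 91.0, 92.4 and 71.7% of Itgal, Itgam and Itgax in sham and 75.7, 71.1 and 75.6% in OHT. Sham replicates 1 and 2 were thus the highest, and sham replicate 3 lay in the OHT range. Fermt3 had 6175, 4466 and 4490 counts in sham and 7178, 6883 and 2589 in OHT, with OHT replicate 3 lowest of all (log2 0.02, SE 0.42; limma adjusted p = 0.989). Parvg had 3822, 2475 and 2987 in sham and 5335, 5418 and 3008 in OHT, overlapping through OHT replicate 3 alone (log2 0.54, SE 0.37; limma adjusted p = 0.553).

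The broad counterparts had a median log2 difference of -0.33 over 5 genes. Itgb1 had 7257, 6242 and 6231 counts in sham, close together, and 5748, 9085 and 2736 in OHT, which lay on both sides of sham (log2 -0.33, SE 0.42; limma adjusted p = 0.747). Itgav had 3017, 2603 and 2068 in sham and 3092, 2251 and 2318 in OHT, with means of 2562 ± 476 and 2553 ± 468 (SD, n = 3 each; log2 -0.00, SE 0.35; limma adjusted p = 0.998). Itgb5 had 20113, 12952 and 11134 in sham and 22939, 18882 and 16306 in OHT (log2 0.43, SE 0.34; limma adjusted p = 0.602), where only sham replicate 1 reached the OHT range. Fermt2 varied most among the OHT libraries, with 632, 1041 and 785 in sham and 2039, 159 and 479 in OHT (log2 -0.58, SE 0.79; limma adjusted p = 0.762), and the difference was 0.30 without OHT replicate 2.

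Lims1 had 10511, 5320 and 5225 counts in sham and 13020, 9014 and 10160 in OHT. As for Itgb5, sham replicate 1 alone overlapped with OHT (log2 0.68, SE 0.36; limma adjusted p = 0.482, between 0.339 and 0.906 over the alternatives), and without it the log2 difference was 1.01. Ilk had 4524, 4633 and 4247 in sham and 6268, 5656 and 3957 in OHT, with replicate 3 of OHT below sham (log2 0.22, SE 0.32; limma adjusted p = 0.781). Zyx, with 2160, 1321 and 2125 against 2457, 2913 and 889, and Itga5, with 1447, 531 and 1125 against 347, 1844 and 1104, had OHT libraries above and below every sham library (log2 0.02 and -0.10; limma adjusted p = 0.987 and 0.955).

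**Figure D5:**
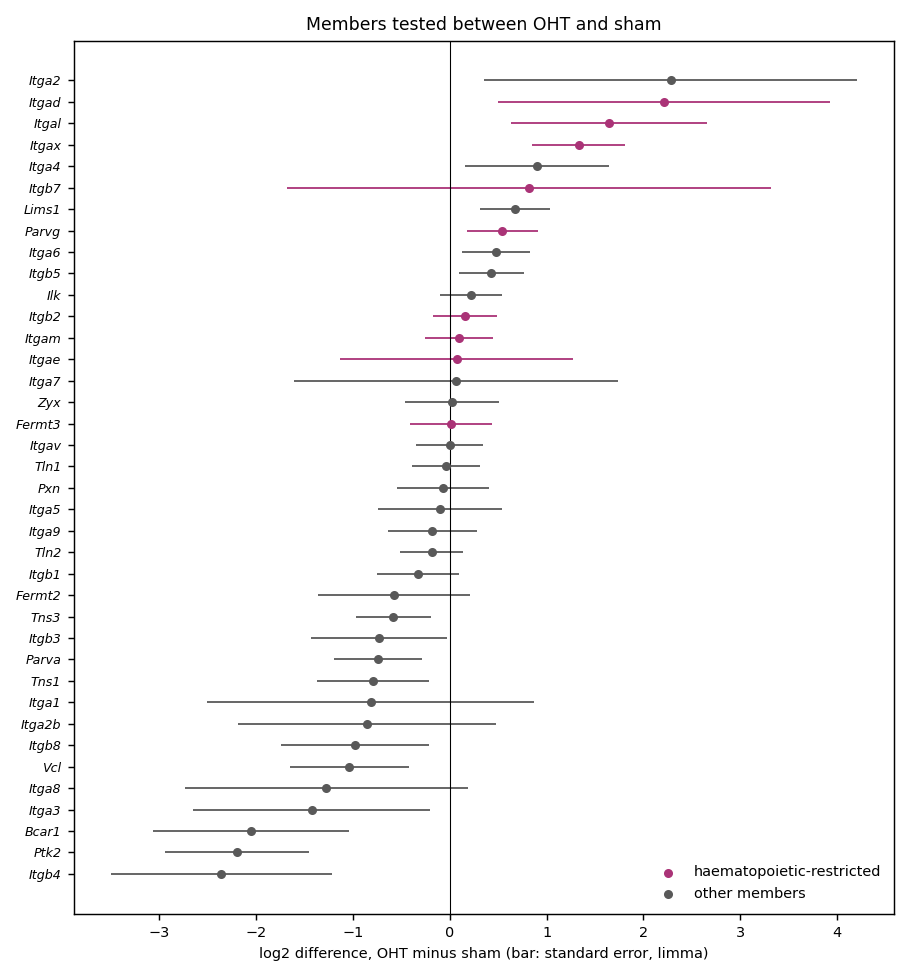
log2 difference between OHT and sham for the 38 tested genes (x axis; bar, standard error from limma), with the blood-restricted genes in colour. Most genes lie within 1 log2 unit of 0, Ptk2, Itgb4 and Bcar1 lie near -2, and all 9 blood-restricted genes lie at or above 0 in the deposited scaling and with a pseudocount of 1.

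Genes that act with integrins were counted from 4 lists in the same limma fit, in which 0 passed an adjusted p of 0.05. Of 23 ligand genes tested, 2 were higher and 6 lower at an unadjusted p of 0.05, against 5.37 and 6.3% of all genes, with a median log2 difference of -1.30. Spp1, which encodes osteopontin, a ligand of alphaV and alpha9 integrins, had 874, 1556 and 38610 counts in sham and 200853, 118025 and 125904 in OHT. Every OHT library was above every sham library, among which replicate 3 stood far above the others (log2 5.26, SE 1.06; limma adjusted p = 0.332). Vtn, which encodes vitronectin, a ligand of alphaV integrins, had 3577, 14373 and 14363 in sham and 930, 966 and 1759 in OHT, again without overlap (log2 -2.95, SE 0.54; limma adjusted p = 0.332).

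Of 25 integrin activation and signalling genes, 3 were higher and 0 lower at an unadjusted p of 0.05, against 5.37 and 6.3% of all genes. Skap2, an adaptor of beta2 integrin activation in myeloid cells, had 8225, 6574 and 7094 counts in sham and 17810, 10538 and 14222 in OHT, without overlap (log2 0.93, SE 0.32; limma adjusted p = 0.343). Fyb, its binding partner, had 16486, 9682 and 14953 against 26209, 19941 and 38532, also without overlap (log2 1.03, SE 0.36; limma adjusted p = 0.351). Of 23 further adaptors and kinases, 0 were higher and 2 lower, near the 6.3% of all genes that were lower. Csrp1, an actin-associated LIM protein, and Kank1, which binds talin, had log2 differences of -3.52 and -2.08 (limma adjusted p = 0.372 and 0.421). Csrp1 had 1175, 3465 and 2789 counts in sham and 426, 1453 and 11.2 in OHT, where replicate 3 was lowest and the groups overlapped. Kank1 had 102, 553 and 477 against 33.2, 110 and 94.6, also with overlap. None of 5 inhibitors passed an unadjusted p of 0.05, and the smallest p belonged to Dab2 (log2 0.87; limma adjusted p = 0.467) and Itgb1bp1 (0.61; 0.533). Dab2 had 4043, 7636 and 11969 counts in sham and 17308, 7996 and 16442 in OHT, with overlap. Itgb1bp1 had 1453, 1217 and 1325 against 2828, 1724 and 1696, without overlap.

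Between sorted and cultured cells these lists differed in direction. Adaptors and kinases were higher in every culture for 22 of 25 genes and lower for 1, against 32.5 and 16.5% of all genes. Ligands were higher for 15 of 23 and lower for 4. Activation and signalling genes were higher for 9 of 25 and lower for 11; Fyb, for example, averaged 482 ± 273 ppm (SD, n = 6) in sorted cells and 1.17 ± 0.236 ppm (SD, n = 3) in cultures. Inhibitors were higher for 2 of 5 and lower for 0.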

How the data were processed

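RNA of 6 libraries of GLAST-captured retinal cells (3 sham, 3 OHT) and 3 untreated primary cultures was amplified with a template-switching kit and sequenced as paired reads of 150 bp, per the labels' protocols. The submitters' processing notes name bcl2fastq 2.20, Trim Galore 0.6.6, FastQC 0.11.9, STAR 2.7.1a and the build mm39; the counting program, annotation and normalisation tool were not given in the sources used here. The deposited signal is 1 normalised count for each gene in each library (sorted cells, 16367 genes; cultures, 17035 genes). Each column is a read count divided by 1 factor: dividing by the step gave whole reads for 100% of values (tolerance 0.05 reads), which in culture replicate 3, whose step is 1.01, is no independent check. All columns belonged to a sample (0 left over). Per-library depth followed from these reads, and every pair of replicates differed by more than sampling noise (chi-square per gene 51.2 to 818).

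OHT and sham were compared with limma 3.58.1 (R 4.3.3; lmFit and eBayes with trend) on log2(value + 1), which understates changes of low genes, for the 14403 genes whose mean reached 10 across both sorted groups, with Benjamini-Hochberg adjustment over all of them and a threshold of 0.05. edgeR 4.0.16 and DESeq2 1.42.0 were run on recovered reads; DESeq2 gave no adjusted p for 510 genes. Levels across tables are ppm of the library's recovered reads, untested. Levels between genes are per kb of the longest GENCODE M21 transcript, whose build may differ from the authors'. Values per library are given for Itgam, Itgb2, Itgb1 and Itgav, the 5 most abundant genes per source, the 3 smallest limma p per direction, genes whose groups did not overlap, the blood-restricted genes and their counterparts, and the 2 smallest p per further list. Other genes named with values were chosen after those were seen. The genes and lists were chosen with earlier results of these data known. No paralogous reads were reassigned. Replicate numbers did not pair the libraries. Alternatives were other pseudocounts, filters, scalings and transcript lengths, no trend, a replicate block, and leaving out each library.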

Additional observations from a re-analysis of the deposited data

How the results depend on the processing

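No alternative brought any tested gene of the 42 past an adjusted p of 0.05 between OHT and sham. Over all genes, 0 passed with limma, 2 with the replicate number as a block, 250 with DESeq2 and 0 to 17 when 1 library was left out (12 without sham replicate 1, 17 without sham replicate 3). Leaving out a library gave 1 to 4 of the tested genes at an unadjusted limma p of 0.05 (1 without sham replicate 2, 4 without sham replicate 1). The share over all genes at that p was not computed for these fits. The median log2 difference ran from -0.37 (without sham replicate 2) to 0.14 (without OHT replicate 3). Then 0 to 6 were higher in every OHT library (5, 1 and 3 without sham replicates 1, 2 and 3, and 6 without OHT replicate 3), and 7 or 8 were lower. Groups of 2 and 3 libraries separate more readily than 3 and 3, and the share over all genes was not computed for them. Of the 23 named genes tested, 12 kept their direction throughout. Leaving out 1 library turned the log2 difference of 10: it ranged from -0.0675 to 0.37 for Itgam, -0.0182 to 0.33 for Itgb2, -0.73 to 0.14 for Itgb1, -0.15 to 0.12 for Itgav, -0.30 to 0.55 for Zyx, -0.62 to 0.58 for Itga5, -1.54 to 0.30 for Fermt2, -0.76 to 0.78 for Itgae, -0.80 to 3.62 for Itgb7 and -0.24 to 0.50 for Fermt3. Quantile normalisation gave -0.31 for Itgam, -0.28 for Itgb2, -0.0855 for Ilk, -0.12 for Zyx, 0.11 for Itga5 and -0.28 for Fermt3. TMM factors gave -0.0099 for Zyx and -0.0173 for Fermt3, and a pseudocount of 10 gave -0.0133 for Itgae and -0.0538 for Itgb7. On recovered reads edgeR gave -0.0011 for Itgam, 0.0448 for Itga5, 0.0127 for Fermt2, -0.34 for Itgae and -1.46 for Itgb7, and DESeq2 gave 0.087 for Itga5, 0.12 for Fermt2, -0.29 for Itgae and -1.39 for Itgb7. The cause was not tested. The replicate block changed no call among the 42; same-numbered sham and OHT libraries had correlations of deviations of 0.08, -0.02 and -0.05, so numbers were not taken as pairs. Between sources, 21 to 23 genes were higher and 10 to 11 lower in every culture. The share over all genes was not computed for these alternatives. Lims1 overlapped under both other scalings, and Tln2 was lower there and without OHT replicate 1. Pxn was higher without sham replicate 1 or culture replicate 1. With median transcript lengths 3 of the 5 most abundant genes stayed in each source, Tln2 took 5.62 to 10.3% of the talins in sorted cells in place of 20.2 to 32.9%, and Itgav 88.6 to 98.3% of Itga5 plus Itgav in place of 43.1 to 84.7%. With 3 libraries a group, differences of low genes such as Itgad and Itgb7 rest on few reads, and amplified reads are not independent molecules.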
